A study of Mus musculus with 24 samples.

Results

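The replication-dependent histone genes of the mouse autosomes were described by H3K4me3 and H3K27me3 at their promoters and along their clusters in 4 populations of fetal gonadal cells. Members were all protein-coding genes on chr1 to chr19 whose symbol begins with Hist1h, Hist2h, Hist3h or Hist4h in the mm9 GENCODE annotation, which gave 67 of 21418 protein-coding genes. By symbol, 55 were Hist1, 9 Hist2, 2 Hist3 and 1 Hist4. The linker histone H1 accounted for 6 members, and the core histones H2A, H2B, H3 and H4 for 19, 18, 11 and 13.

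These genes provide the bulk of the histones that package newly copied DNA, and most are transcribed during S phase. Typical members are short, lack introns, and give an mRNA that ends in a stem-loop bound by Slbp instead of a poly(A) tail. H3K4me3 is found at the starts of active and poised genes, H3K27me3 is deposited by Polycomb repressive complexes, and a promoter that carries both marks is called bivalent.

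Gonads came from C57BL/6 x CD1 embryos, and cells were isolated by FACS with fluorescent reporters. XY and XX progenitor cells were sorted at E10.5 by SF1-eGFP, Sertoli cells from XY gonads at E13.5 by Sox9-CFP, and pregranulosa cells, which the labels call granulosa cells, from XX gonads at E13.5 by TESM-CFP. The study's methods name this last line TESMS-CFP. Each population was thus the set of cells in which its reporter was on, the reporter line differed between E10.5 and E13.5 and between Sertoli and pregranulosa cells, and cells of several embryos were pooled to reach 30K to 100K. For each population, 2 replicates were immunoprecipitated for H3K4me3, for H3K27me3 and for H3, the control for peak calling, which made 24 samples in all. Per the study's methods, each immunoprecipitation also received Drosophila S2 cells as carrier, in larger number than the sorted cells. The part of this carrier in the lists was not tested.

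The data were 8 lists of HOMER peaks, 1 per mark and population, each pooled over its replicates. Pooled lists show no replicate error, so no test compared populations, and intervals given with a share are exact 95% binomial intervals that cover counting error only. The lists record where a mark was called and carry no level, and depth differed between them. The H3K4me3 lists came from 10162534 tags in XY progenitors, 49254553 in XX progenitors and 31104760 in Sertoli cells, and the H3K27me3 lists from 6470151, 33185400 and 44446456. Depth in pregranulosa cells is unknown. Each promoter was taken as 2 kb on either side of the transcription start site (TSS), called the window, and counted as marked when a region of the list overlapped it by at least 1 bp.

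The populations were first set against marker promoters. The gonadal somatic markers Nr5a1, Wt1, Gata4 and Lhx9 all carried H3K4me3 in each population, and H3K27me3 lay at 4 of the 4 in both progenitor populations, at 1 in Sertoli cells (Lhx9) and at 0 in pregranulosa cells. The Sertoli markers Sox9, Dmrt1, Amh and Dhh were without H3K27me3 in Sertoli cells, whereas all 4 carried it in pregranulosa cells and 3 did in each progenitor population. The pregranulosa markers Foxl2, Wnt4, Rspo1 and Fst carried H3K27me3 at 4 of 4 promoters in both progenitor populations and in Sertoli cells and at 2 in pregranulosa cells, where Wnt4 and Rspo1 had none. All 8 of these Sertoli and pregranulosa promoters carried H3K4me3 in every list. Of the germ cell markers Pou5f1, Ddx4, Dazl and Dppa3, H3K4me3 was called at 1 in XY progenitors, 2 in XX progenitors, 3 in Sertoli cells and 2 in pregranulosa cells. Dazl had it in all 4 lists and Ddx4 in none. H3K27me3 was at 2, 2, 2 and 1 of the germ cell markers, at Pou5f1 in all 4 lists and at Dppa3 in the first 3, and 0, 1, 2 and 0 were bivalent. Among the endothelial markers Pecam1, Cdh5, Kdr and Tek and the blood markers Ptprc, Hbb-b1, Gata1 and Tal1, H3K4me3 was called at 1 of each list in the first 3 populations (Kdr and Tal1, bivalent in each) and at 2 of each in pregranulosa cells, where Cdh5 and Gata1 joined them. The part that other cell types may have had in the values below was not tested.

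Every member carried H3K4me3 in every population, that is 67 of 67 in each list (100%, 94.6–100). Over all 21418 protein-coding genes, the share with H3K4me3 was 64.8% in XY progenitors, 66.7% in XX progenitors, 65.5% in Sertoli cells and 67.0% in pregranulosa cells, and 62.5% had it in all 4. The 5 histone classes therefore did not differ in the presence of the mark. The members are not independent of each other, since 55 of the 67 windows overlapped the window of another member. They formed 33 groups of overlapping windows, with at most 5 members in a group.

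H3K4me3 also filled more of the window at the histone genes than at marked genes in general. The median cover of the window was 3269 bp in XY progenitors, 3847 bp in XX progenitors, 3361 bp in Sertoli cells and 3566 bp in pregranulosa cells. Over all protein-coding genes with the mark in that list, the medians were 2208, 2812, 2542 and 2732 bp. The whole window was covered at 9 members in XY progenitors, 23 in XX progenitors, 6 in Sertoli cells and 11 in pregranulosa cells, against 291, 890, 556 and 846 of all 21418 genes. Cover lay on both sides of the start. Of the 2000 bp upstream, the member medians were 1848, 2000, 1816 and 1842 bp in the same order of populations, and of the 2000 bp downstream they were 1851, 2000, 1842 and 1978 bp. At all marked genes the upstream medians were lower than the downstream medians, at 820, 1117, 987 and 1063 bp against 1366, 1756, 1556 and 1736 bp. Since most member windows overlapped that of another member, cover on either side of a start can include the region of a neighbor. The part of neighbors in these values was not tested.

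**Figure D1:**
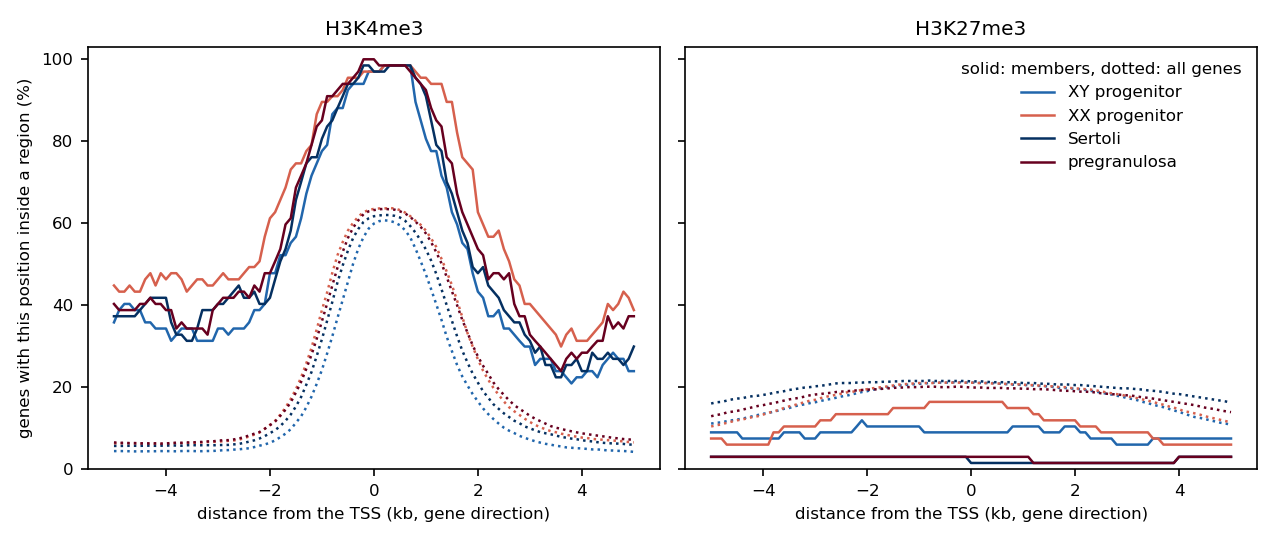
Share of the 67 members (solid lines) and of all protein-coding genes (dotted lines) with each position around the TSS inside an H3K4me3 or H3K27me3 region, in percent against distance from the TSS in kb, 1 color per population. The solid H3K4me3 lines stand above the dotted lines over the whole range, and the solid H3K27me3 lines stand below the dotted lines.

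The classes were compared by the median cover of H3K4me3. At the 6 H1 genes it was 2790.5 bp in XY progenitors, 2911.0 bp in XX progenitors, 2974.0 bp in Sertoli cells and 3214.0 bp in pregranulosa cells, which was the lowest of the 5 classes in each list. The H2A genes had 3322, 3863, 3539 and 3570 bp, and the H2B genes 3102.5, 3894.5, 3486.5 and 3588.5 bp. For H3 the medians were 3338, 3682, 3618 and 3515 bp, and for H4 they were 3416, 3930, 3152 and 3444 bp. The order of the core histone classes changed from list to list, and with 11 to 19 members per class no order was drawn among them. All 6 H1 genes were outside the head-to-head pairs described below. The 41 members outside such pairs had medians of 2962, 3585, 3152 and 3300 bp. With 6 genes, the low H1 medians are not read as a trait of the class.

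Cover differed between the lists at most members. It cannot exceed the window, so a member whose whole window is covered cannot widen, and since members were at this limit more often than genes in general, the values of all genes below are given as description and not read against those of the members. XX progenitors had wider cover than XY progenitors at 50 members, equal cover at 10 and narrower cover at 7, with a median difference of 306 bp. At all genes marked in both lists, cover was wider in XX progenitors for 85.8%, with a median difference of 529 bp. Pregranulosa cells had wider cover than Sertoli cells at 41 members (61.2%) and narrower cover at 19, with a median difference of 95 bp, and the values of all marked genes were 65.1% and 176 bp. From XY progenitors to Sertoli cells, 36 members had wider and 24 narrower cover, with a median difference of 18 bp. At all genes marked in both of these lists, 69.4% were wider in Sertoli cells, with a median difference of 265 bp. From XX progenitors to pregranulosa cells, 11 had wider and 44 narrower cover, and the median fell by 167 bp. At all genes marked in both, 42.5% were wider in pregranulosa cells and the median fell by 29 bp. The XX progenitor list had the most H3K4me3 tags of the 3 with a known depth and the XY progenitor list the fewest, and the part of depth in these differences was not tested.

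Neighboring members often lay under the same H3K4me3 region. The 67 windows were reached by 39 regions in XY progenitors, 36 in XX progenitors, 38 in Sertoli cells and 37 in pregranulosa cells. Their median widths were 3087, 4423, 3754 and 4053 bp, against 2134, 2892, 2541 and 2824 bp for the promoter regions of all protein-coding genes. The widest region in each list lay over Hist1h4h, Hist1h2af and Hist1h3g, with a width of 8796 bp in XY progenitors (chr13:23620429-23629224, mm9), 9770 bp in XX progenitors, 7847 bp in Sertoli cells and 8787 bp in pregranulosa cells. The most members under a single region were 5, namely Hist1h2ae, Hist1h2bg, Hist1h2bf, Hist1h2ad and Hist1h3d, in all 4 lists. That region was 7138, 9243, 7754 and 8260 bp wide. The whole gene lay inside a region for 53 members in XY progenitors, 56 in XX progenitors, 56 in Sertoli cells and 58 in pregranulosa cells. Histone genes are short, with a median length of 530 bp and 51 of the 67 no longer than 1 kb. No share over all genes stands beside the counts of whole genes, so they are not read as particular to histone genes.

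The whole window was covered in all 4 lists at 5 members, Hist1h4m, Hist1h2af, Hist1h2bf, Hist1h2ad and Hist1h3a. At the other end stood Hist1h2ba and Hist1h2aa, the testis-specific H2B and H2A genes, which share a promoter region and had 1001 bp of cover in every list. Hist1h2al, an H2A gene far from the clusters, had 1252, 1517, 1257 and 1501 bp. The H4 gene Hist1h4b had 1537 bp in XY progenitors, 1792 bp in XX progenitors, 1581 bp in Sertoli cells and 1503 bp in pregranulosa cells.

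**Figure D2:**
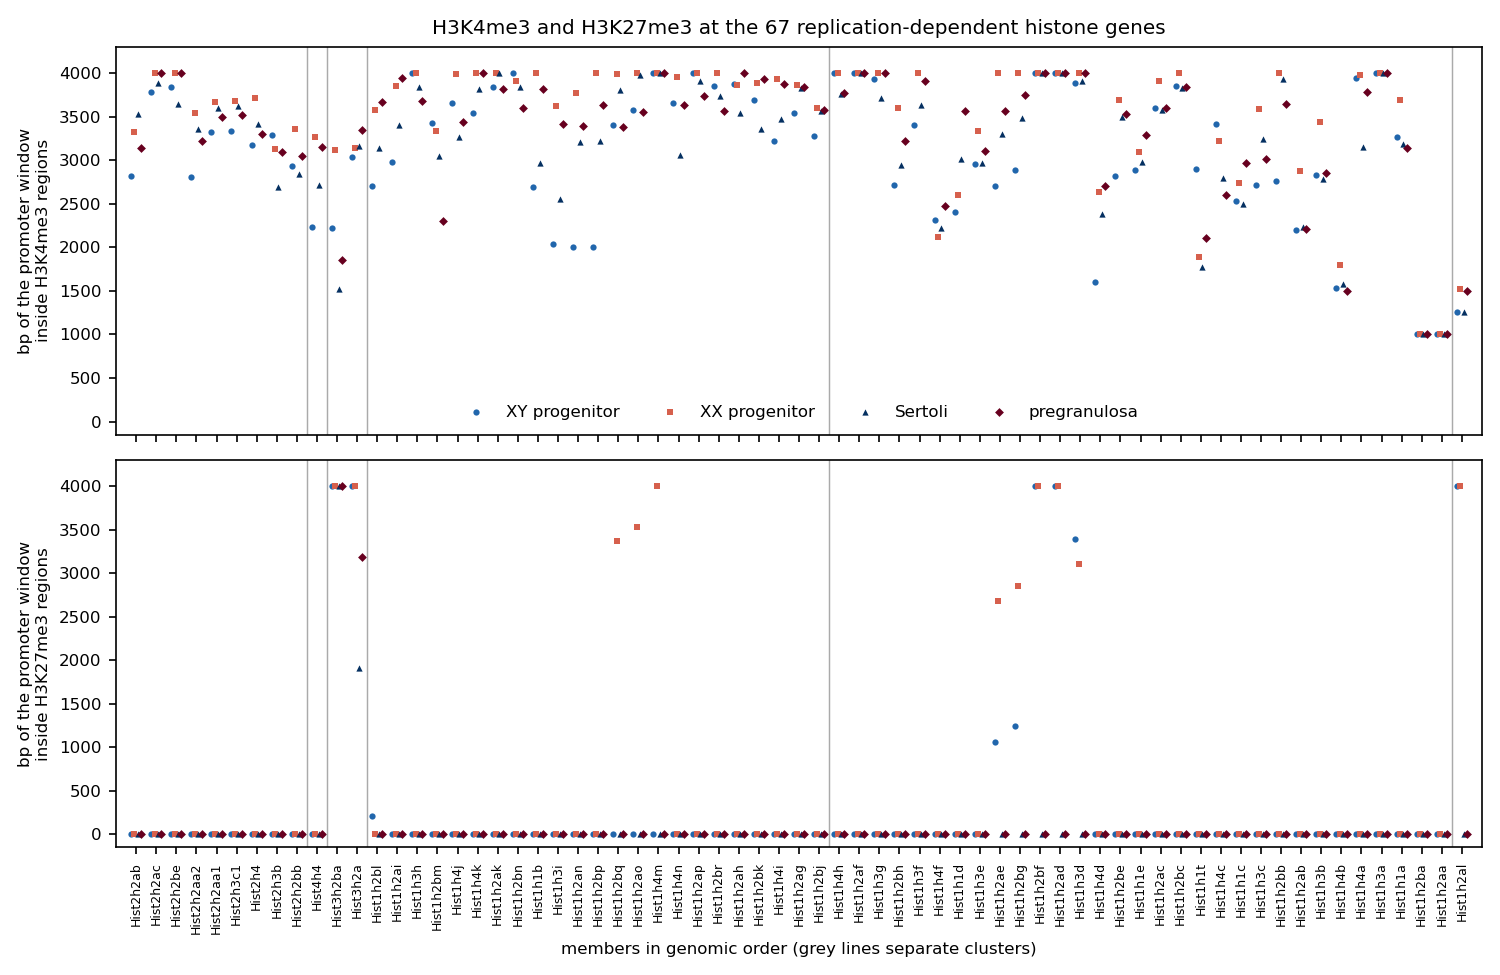
Bases of the promoter window (TSS ± 2 kb) inside H3K4me3 (upper panel) and H3K27me3 (lower panel) regions for each of the 67 members in each of the 4 populations, in bp, with members in chromosome order, a marker per population and vertical lines between clusters. H3K4me3 reached every member in every list, while H3K27me3 cover was present at 9, 11, 2 and 2 members in XY progenitors, XX progenitors, Sertoli and pregranulosa cells.

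The germ cell variants, Hist1h1t (the testis-specific H1), Hist1h2aa and Hist1h2ba, were then examined for where H3K4me3 lay. The TSS itself was inside an H3K4me3 region at 65 members in each of the first 3 populations, and Hist1h1t and Hist1h2aa were the 2 exceptions. In pregranulosa cells it was inside at all 67. For all protein-coding genes the shares were 59.9%, 63.5%, 61.7% and 63.2%. Hist1h1t had 2895, 1884, 1779 and 2109 bp of H3K4me3 in its window. Its nearest region began 107 bp downstream of the TSS in XY progenitors, 117 bp in XX progenitors and 222 bp in Sertoli cells, and it was the region that also lay over the H4 gene Hist1h4c. In XY progenitors a further region of 1001 bp, chr13:23786066-23787066 (mm9), ended 614 bp upstream of the TSS. In pregranulosa cells a region of 1386 bp, chr13:23787250-23788635 (mm9), held the TSS of Hist1h1t and also reached the window of Hist1h4c. At Hist1h2aa the nearest region ended 113, 116 and 33 bp before the TSS in the first 3 populations and held the TSS in pregranulosa cells. That region was 1001 bp wide, the smallest width called for H3K4me3 at any member, and in XY progenitors it ran from chr13:24025218 to 24026218 (mm9). With the widest 75% of regions Hist1h2aa and Hist1h2ba lost the H3K4me3 call in XX progenitors, Sertoli and pregranulosa cells. H3K27me3 was at none of the 3 variants in any population.

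The promoter sequences of Hist1h1t and Hist1h2aa are shown because their starts were outside H3K4me3 in the first 3 populations, and that of Hist1h2ba because it shares its upstream stretch with Hist1h2aa. The start of Hist1h2ba was inside a region in every list. Sequences are from RefSeq (table on GRCm38.p6) and were placed on mm9 by exact match, and capitals mark matches, on either strand, to the TATA box letters TATAAA, to CCAAT, to the octamer ATTTGCAT and to the H1 letters AAACACA. Hist1h1t is given as the 250 bases before its start, chr13:23787430-23787679 (mm9, plus strand). The stretch between the starts of Hist1h2ba on the minus strand and Hist1h2aa on the plus strand is chr13:24026026-24026305 (mm9, plus strand), 280 bases in length.
Hist1h1t: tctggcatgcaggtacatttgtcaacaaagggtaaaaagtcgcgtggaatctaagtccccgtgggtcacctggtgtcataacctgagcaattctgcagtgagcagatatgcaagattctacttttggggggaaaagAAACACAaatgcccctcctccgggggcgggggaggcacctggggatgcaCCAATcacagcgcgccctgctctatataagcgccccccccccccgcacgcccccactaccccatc
Hist1h2ba and Hist1h2aa: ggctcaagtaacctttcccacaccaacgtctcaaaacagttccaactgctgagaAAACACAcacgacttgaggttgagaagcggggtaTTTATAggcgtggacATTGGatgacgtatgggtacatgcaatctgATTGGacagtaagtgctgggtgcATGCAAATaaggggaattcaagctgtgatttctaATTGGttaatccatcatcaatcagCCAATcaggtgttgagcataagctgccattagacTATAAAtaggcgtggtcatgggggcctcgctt
Hist1h1t held AAACACA, the letters known from H1 promoters, with the first base 114 bases before the start, and CCAAT at 65 bases before it. The shared stretch of Hist1h2ba and Hist1h2aa held 4 matches of CCAAT, 2 of TATAAA, 1 of ATTTGCAT and 1 of AAACACA.

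H3K27me3 was present at few members and at fewer after sex determination. It was called at 9 of 67 members in XY progenitors (13.4%, 6.33–24.0), 11 in XX progenitors (16.4%, 8.49–27.5), 2 in Sertoli cells (2.99%, 0.364–10.4) and 2 in pregranulosa cells (2.99%, 0.364–10.4). Over all protein-coding genes the shares were 23.6%, 22.8%, 24.2% and 22.1%. Since all members had H3K4me3, the same 9, 11, 2 and 2 members were bivalent, against 20.9%, 21.4%, 19.2% and 19.6% of all genes. H3K27me3 occurred in 1 or more populations at 12 of the 67 members, and at 31.2% of all genes.

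The loss between E10.5 and E13.5 was counted within each sex. Of the 9 members with H3K27me3 in XY progenitors, 7 had none in Sertoli cells, where 22.4% of all genes with the mark in XY progenitors lacked it. Of the 11 in XX progenitors, 9 had none in pregranulosa cells, where 18.5% of all such genes lacked it. The pregranulosa lists carry no record of their settings, and the H3K27me3 list holds 12609 peaks that do not overlap, against 74001 mostly overlapping peaks in XX progenitors, so the calling may have differed as well, and its part in this loss was not tested. The mark was new in Sertoli cells at 0 of the 58 members without it in XY progenitors, against 7.68% of all such genes, and new in pregranulosa cells at 0 of the 56 without it in XX progenitors, against 4.43%. By pattern, 55 members carried H3K4me3 alone throughout (38.2% of all genes did), 6 were bivalent in both progenitor populations only (2.08%), 3 in XX progenitors only (0.49%), 1 in XY progenitors only (0.966%), and 2 in all populations (14.0%), with H3K4me3 alone wherever a promoter was not bivalent. These counts rest on few regions, since the windows of the marked members were reached by 4 H3K27me3 regions in each progenitor list and by 1 in each E13.5 list. Counted by groups of overlapping windows, H3K27me3 was at 5, 5, 2 and 2 of 33, so the loss was smaller by this count than by members. The TSS itself was inside an H3K27me3 region at 6, 11, 1 and 2 members, against 21.1%, 21.1%, 21.4% and 19.9% of all genes. The Sertoli list had the most H3K27me3 tags of the 3 with a known depth and the XY progenitor list the fewest, and the part of depth in these counts was not tested.

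By class, H3K27me3 lay at 4 of 19 H2A genes in XY progenitors, 5 in XX progenitors, 1 in Sertoli cells and 1 in pregranulosa cells, and at 4, 4, 1 and 1 of 18 H2B genes. Among the 11 H3 genes it was at 1, Hist1h3d, in both progenitor populations, and among the 13 H4 genes at 1, Hist1h4m, in XX progenitors. None of the 6 H1 genes had it in any list. Of all protein-coding genes, 23.6%, 22.8%, 24.2% and 22.1% had the mark. With few members per class, no difference between classes is read from these counts.

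The members bivalent in all 4 populations were the H2B gene Hist3h2ba and the H2A gene Hist3h2a, the 2 protein-coding genes of the Hist3 cluster on chr11. At Hist3h2ba, H3K27me3 covered the whole window in every list, and H3K4me3 covered 2226 bp in XY progenitors, 3118 bp in XX progenitors, 1521 bp in Sertoli cells and 1856 bp in pregranulosa cells. At Hist3h2a, H3K27me3 covered the whole window in both progenitor populations, 1906 bp in Sertoli cells and 3183 bp in pregranulosa cells, and H3K4me3 covered 3036, 3143, 3164 and 3345 bp. The windows of both genes were reached by the same H3K27me3 region. It ran over chr11:58755942-58770481 in XY progenitors (14540 bp), chr11:58755568-58778584 in XX progenitors (23017 bp), chr11:58755054-58768092 in Sertoli cells (13039 bp) and chr11:58755040-58769369 in pregranulosa cells (14330 bp, all mm9). The left edge of this region was within 1 kb in the 4 lists, and the right edge differed. In Sertoli cells the region ended before the TSS of Hist3h2a at chr11:58768187, so that its downstream side was free of the mark there. The annotated pseudogene Hist3h2bb-ps between them had the same pair of marks, with H3K27me3 over all of its window in both progenitor populations, 2079 bp in Sertoli cells and 3356 bp in pregranulosa cells.

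The 250 bases before the start of each Hist3 gene are shown because these were the members with both marks in every list. They come from RefSeq with the same capitals, at chr11:58762163-58762412 for Hist3h2ba and chr11:58767937-58768186 for Hist3h2a (mm9, plus strand).
Hist3h2ba: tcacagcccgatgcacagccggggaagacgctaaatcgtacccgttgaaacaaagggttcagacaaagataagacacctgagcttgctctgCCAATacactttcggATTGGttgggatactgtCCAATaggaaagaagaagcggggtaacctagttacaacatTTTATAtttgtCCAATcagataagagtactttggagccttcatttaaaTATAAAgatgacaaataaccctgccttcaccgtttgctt
Hist3h2a: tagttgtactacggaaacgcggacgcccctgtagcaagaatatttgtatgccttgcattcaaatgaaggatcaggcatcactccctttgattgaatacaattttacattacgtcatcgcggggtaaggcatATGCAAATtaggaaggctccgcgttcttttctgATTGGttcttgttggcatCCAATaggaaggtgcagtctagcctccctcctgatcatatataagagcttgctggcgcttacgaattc
Hist3h2ba held 4 matches of CCAAT and 2 of TATAAA, and Hist3h2a held 2 of CCAAT and 1 of ATTTGCAT, with none of TATAAA.

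A group of 5 neighbors on chr13 was bivalent in both progenitor populations and had H3K4me3 alone at E13.5. These were the H2A genes Hist1h2ae and Hist1h2ad, the H2B genes Hist1h2bg and Hist1h2bf, and the H3 gene Hist1h3d. Their windows were reached in XY progenitors by a region of 5001 bp at chr13:23664025-23669025, which ended short of the starts of Hist1h2ae (936 bp away) and Hist1h2bg (760 bp), and in XX progenitors by a region of 6329 bp at chr13:23662409-23668737 (mm9), which held all 5 starts. H3K27me3 covered the whole window at Hist1h2bf and Hist1h2ad in both. At Hist1h2ae it covered 1065 bp in XY and 2681 bp in XX progenitors, at Hist1h2bg 1241 and 2857 bp, and at Hist1h3d 3394 and 3106 bp. All 5 had 0 bp of H3K27me3 in Sertoli and pregranulosa cells, while H3K4me3 covered at least 3306 bp at each of them in the E13.5 lists.

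Hist1h2bf and Hist1h2ad stood at the center of this group and kept H3K4me3 over the whole window in all lists. Their starts point away from each other, and the 173 bases between the RefSeq starts, chr13:23666077-23666249 (mm9, plus strand, same capitals), are shown as the shared promoter that was covered by both marks in progenitors.
Hist1h2bf and Hist1h2ad: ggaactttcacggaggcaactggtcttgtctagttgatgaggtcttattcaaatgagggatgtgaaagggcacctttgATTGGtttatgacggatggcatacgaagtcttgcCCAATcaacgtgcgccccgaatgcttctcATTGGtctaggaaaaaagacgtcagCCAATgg
The stretch held 4 matches of CCAAT, on alternating strands, and no match to any other of these letters.

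Hist1h2al had the same pattern on its own. This H2A gene at chr13:51298057-51298434 lies apart from the clusters, and H3K27me3 covered all of its window in both progenitor populations, under regions of 11093 bp in XY and 8903 bp in XX progenitors, and 0 bp in Sertoli and pregranulosa cells.

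Among the members marked in a single progenitor list, 3 were bivalent in XX progenitors only. Hist1h2bq (H2B), Hist1h2ao (H2A) and Hist1h4m (H4) had 3365 bp, 3533 bp and the whole window under H3K27me3, all from 1 region of 5001 bp at chr13:21900704-21905704 (mm9). With the widest 75% of regions all 3 lost the call, and 8 members with H3K27me3 were left in XX progenitors. This stretch is a near copy of another part of the same cluster. Of the 31-base words in the window, 99.2% at Hist1h2bq, 98.6% at Hist1h2ao and 97.2% at Hist1h4m occurred elsewhere in mm9, and the copy with Hist1h4n, Hist1h2ap and Hist1h2br (84.1%, 98.8% and 99.4%) had no H3K27me3 in any list. How reads that fit several places were assigned is not given in the sources used here, and its part in this difference was not tested. In XY progenitors only, Hist1h2bl (H2B) was counted as marked by a region of 6262 bp that reached 210 bp into its window.

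The other members lay at some distance from H3K27me3. The median distance from the TSS of an unmarked member to the nearest H3K27me3 region was 40039 bp over 58 members in XY progenitors, 42963 bp over 56 in XX progenitors, 157037 bp over 65 in Sertoli cells and 103650 bp over 65 in pregranulosa cells. The closest unmarked member was 2060 bp away in XY progenitors and 7323 bp away in pregranulosa cells. Neighboring members were often measured to the same region, and no distance over all genes stands beside these values. The longer distances at E13.5 are therefore not read as particular to histone genes.

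Members at most 500 kb apart were joined into clusters, which gave 4 clusters of 2 or more members and 2 genes alone, Hist1h2al and Hist4h4 on chr6. The 4 clusters took up 798566 bp, and the 2 lone genes were left out of the shares below. H3K4me3 covered 22.3% of this length in XY progenitors, 28.5% in XX progenitors, 24.4% in Sertoli cells and 26.3% in pregranulosa cells. Over the autosomes without gaps, it covered 2.54%, 3.63%, 3.06% and 3.64%. The shares under H3K27me3 were 9.78%, 9.86%, 6.51% and 8.67%, against 3.75%, 3.43%, 6.51% and 5.42% of the autosomes. The comparison depended on the stretches between histone genes, since with clusters joined over at most 100 kb H3K27me3 covered 2.96%, 4.42%, 1.32% and 1.61%, above the autosomes in XX progenitors and below them in the other populations. H3K27me3 inside the clusters lay mostly away from histone genes, as the clusters taken singly show.

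The Hist2 cluster on chr3, from Hist2h2ab to Hist2h2bb (chr3:96023839-96082924, mm9), held 9 members in 59086 bp. H3K4me3 covered 34.9% of it in XY progenitors, 45.3% in XX progenitors, 38.3% in Sertoli cells and 43.5% in pregranulosa cells, and H3K27me3 covered 0 bp in every list. A region of H3K27me3 began beyond its last member in all 4 lists, at chr3:96084523 in XY progenitors and chr3:96083569 in pregranulosa cells. The Hist3 cluster, from Hist3h2ba to Hist3h2a on chr11, was the reverse case, with 100%, 100%, 73.2% and 89.6% of its 7764 bp under H3K27me3. Its H3K4me3 shares were 58.3%, 67.3%, 52.0% and 54.4%.

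The first Hist1 cluster on chr13, from Hist1h2bl to Hist1h2bj (chr13:21807632-22135545), held 23 members in 327914 bp. H3K4me3 covered 27.5%, 34.8%, 31.3% and 33.3% of it, and H3K27me3 18.4%, 19.7%, 14.1% and 17.1%. Most of the H3K27me3 was 1 region without a histone gene, 48839 bp wide in XY progenitors (chr13:22067704-22116542), 50501 bp in XX progenitors, 46296 bp in Sertoli cells and 46643 bp in pregranulosa cells. It lay over Pom121l2 and Prss16, a thymic serine protease, which were bivalent in all 4 lists. At Prss16, H3K4me3 covered only 345, 232, 345 and 290 bp of the window, less than the alternative overlap of 500 bp. Zfp184, a zinc finger gene next to this region, had H3K4me3 alone. In the same cluster, 26 H3K4me3 regions in XY progenitors, 25 in XX progenitors, 24 in Sertoli cells and 26 in pregranulosa cells touched no member window. Of these, 19, 17, 16 and 19 had no start of a gene of the GENCODE annotation within 2 kb, and 22, 20, 20 and 20 were overlapped by a region in all 4 lists. Genes absent from that annotation were not looked for.

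The second Hist1 cluster, from Hist1h4h to Hist1h2aa (chr13:23622919-24026720), held 31 members in 403802 bp. H3K4me3 covered 15.5%, 20.1%, 16.2% and 17.6%, and H3K27me3 2.48%, 1.57%, 0% and 1.55%. Its H3K4me3 regions away from members were fewer, 5, 5, 3 and 4. Of the 7 other protein-coding genes inside it, Gm17658 and the iron regulator gene Hfe, which lie among the histone genes, had H3K4me3 alone in every list, and Trim38, Slc17a1, Slc17a2 and Slc17a3 in the gap before Hist1h2ba had neither mark. Slc17a4, of the same family of phosphate transporters and in the same gap, had H3K4me3 over 2002 bp in XY progenitors, 3235 bp in XX progenitors, 0 bp in Sertoli cells and 2148 bp in pregranulosa cells, where it also had 3754 bp of H3K27me3.

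**Figure D3:**
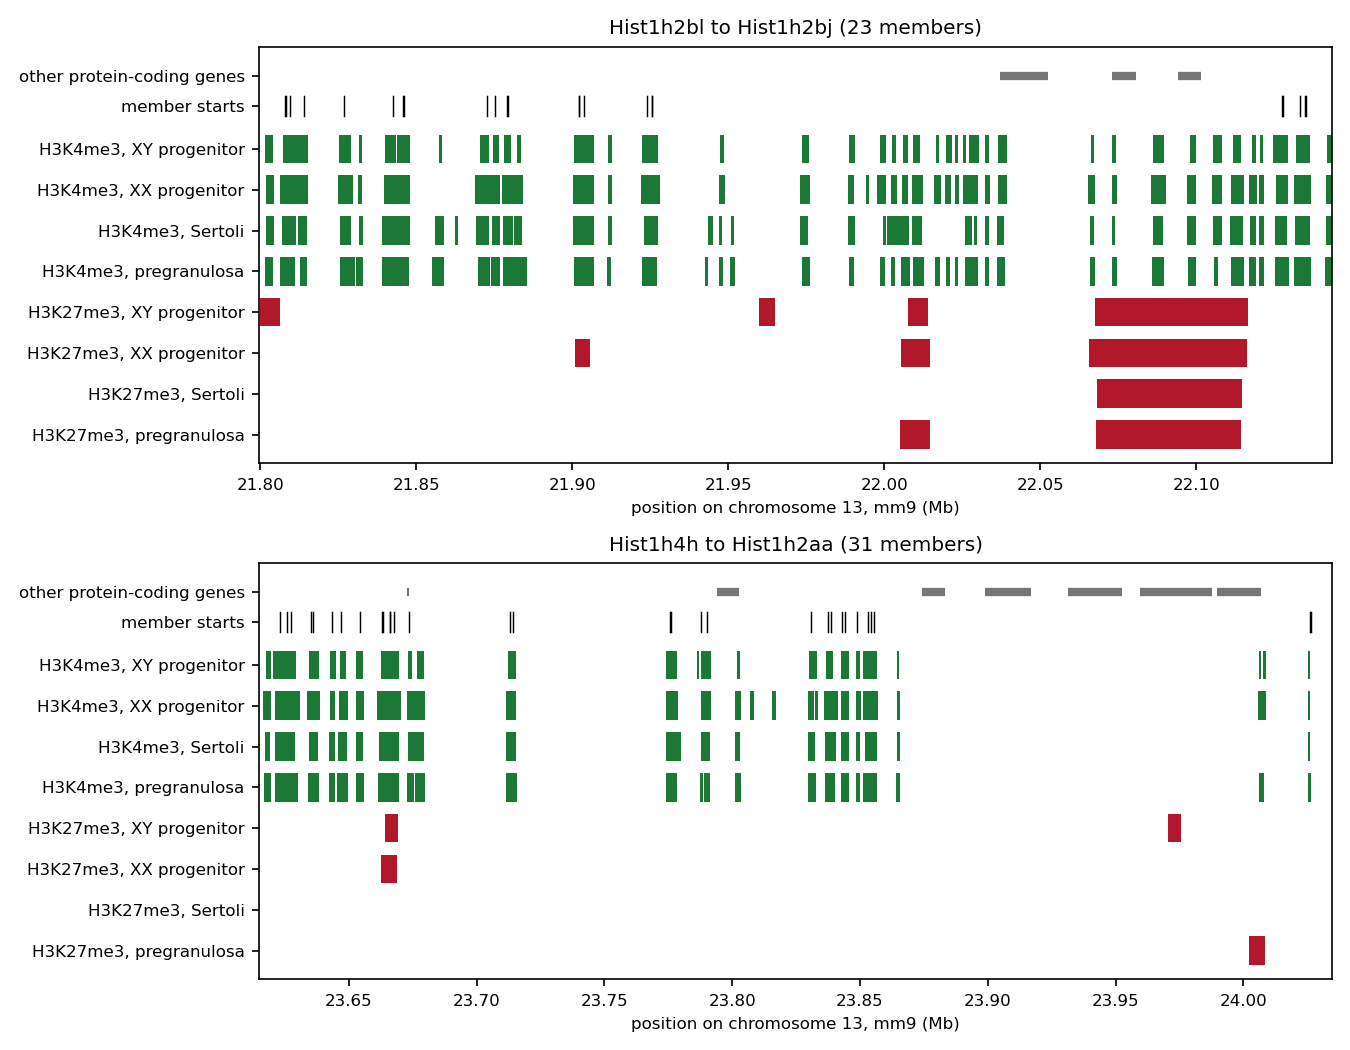
Regions of the 8 lists along both Hist1 clusters of chr13 (position in Mb, mm9), with the starts of member genes and the other protein-coding genes drawn above. H3K4me3 regions lie at the histone genes and also between them, and the widest H3K27me3 region, 46296 to 50501 bp, lies over Pom121l2 and Prss16 in all 4 populations.

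Many members are arranged head to head. There were 13 divergent pairs with starts 168 to 693 bp apart (median 241 bp), which took in 26 members, and 12 of them joined an H2A with an H2B gene. The exception was Hist1h2bh with the H3 gene Hist1h3f. Median H3K4me3 cover was 3558.0 bp at members of a pair and 2962 bp at the other 41 in XY progenitors, 3997.5 and 3585 bp in XX progenitors, 3607.5 and 3152 bp in Sertoli cells, and 3702.5 and 3300 bp in pregranulosa cells. H3K27me3 was at 5, 6, 0 and 0 of the 26 paired members and at 4, 5, 2 and 2 of the others. Of all protein-coding genes, 23.6%, 22.8%, 24.2% and 22.1% had the mark. The marked members lay under few regions, so no difference between paired and other members is read from these counts. In 12 of the 13 pairs both genes had the same marks in every list, and Hist1h2bl with Hist1h2ai was the exception, by the 210 bp of H3K27me3 at Hist1h2bl in XY progenitors.

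The promoter letters were counted in the RefSeq promoters of 60 of the 67 members, from 250 bases before to 50 bases after the start, on both strands, with matches of different motifs allowed to overlap. Hist2h2be, Hist2h4, Hist1h2ap, Hist1h3f, Hist1h2bc, Hist1h3a and Hist1h2al had no entry. CCAAT was in 51 member promoters (85.0%) and in 37.4% of all 32851 promoters of the table, and TATAAA was in 35 (58.3%) and in 13.6%. ATTTGCAT, the octamer known from H2B genes, was in 13 (21.7%) and in 1.74%, and AAACACA was in 9 (15.0%) and in 7.18%. TATAAA was in 4 of 6 H1, 11 of 17 H2A and 8 of 16 H2B promoters, and in 4 of 9 H3 and 8 of 12 H4 promoters. Differences between classes in these letters were not tested. CCAAT was in all promoters counted of H1, H2A, H2B and H3 genes and in 3 of 12 of H4 genes. ATTTGCAT was in 7 of 17 H2A and 6 of 16 H2B promoters and in none of the others. It was on the gene strand in the H2B promoters and on the other strand in the H2A promoters. Some head-to-head genes, such as Hist1h2ba and Hist1h2aa, were both counted for the same match. AAACACA was in 5 of 6 H1 promoters, with its first base 112 to 122 bases before the start, and Hist1h1a was without it. The same letters were in 2 of 17 H2A and 2 of 16 H2B promoters. The median GC content of member promoters was 45.3%, against 52.7% over the table, and the median number of CpG was 11 against 7. Members with and without H3K27me3 were not compared by these letters, since the marked ones lay under few regions.

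The end of the gene was searched for an inverted repeat of a 6-base stem that begins with GG and a 4-base loop that begins with TT, within 200 bases of the annotated end. It was found at 47 of 67 members (70.1%) and at 14 of the 21351 other protein-coding genes (0.0656%). By class it was at 4 of 6 H1, 14 of 19 H2A, 11 of 18 H2B, 7 of 11 H3 and 11 of 13 H4 genes. The 3 most common of its 6 forms are given, with stems in capitals, since they are a feature of the mRNA that the choice of members by symbol did not use.
found at 27 members: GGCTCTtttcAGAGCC
found at 8 members: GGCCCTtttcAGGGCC
found at 8 other members: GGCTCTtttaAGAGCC
The 20 members without a match had annotated lengths from 378 to 37383 bp.

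Repeated sequence was more frequent at members than at other genes, and mostly downstream of the start. The median share of 31-base words of the promoter window that occur elsewhere in mm9 was 17.1% for members and 3.55% for the 724 protein-coding genes of chr19. In the 300 bases upstream of the TSS both medians were 0%, and in the 300 bases downstream they were 68.9% and 0%. The H1 genes had a window median of 4.92% and the H2B genes 19.3%. At the members with lasting H3K27me3 the share was 7.73% (Hist3h2ba) and 7.81% (Hist3h2a), below the member median and above that of chr19. It was 32.1% at both Hist1h2bf and Hist1h2ad, 29.0% at Hist1h2al and 25.9% at Hist1h3d. The part of repeated sequence in the cover of either mark was not tested.

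The genes that serve histone supply were looked at beside the members. Of 23 such genes, which act in histone gene transcription (such as Npat and Hinfp), in processing of the mRNA end (such as Slbp and Lsm11) and in chaperoning (such as Nasp and Asf1a), H3K4me3 was at 22, 22, 23 and 22. Coil, the coilin gene, was the exception, with 1001 bp of cover in Sertoli cells and none elsewhere. The H3K4me3 shares of all protein-coding genes were 64.8%, 66.7%, 65.5% and 67.0%. H3K27me3 was at 1 gene in each list, Sympk, a scaffold of the cleavage complex, with 3590 bp in XY progenitors, 3683 bp in XX progenitors, 2118 bp in Sertoli cells and 3597 bp in pregranulosa cells. In Sertoli cells the count was 0 with the widest 75% of regions and with the list cut to the length of the shortest. The H3K27me3 shares of all protein-coding genes were 23.6%, 22.8%, 24.2% and 22.1%. Npat, the coactivator of histone genes, had 3712, 3544, 3506 and 3823 bp of H3K4me3, and Slbp had 2409, 3010, 3141 and 2698 bp.

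The replication-independent histone genes were counted as well. Of 14 listed, 13 were in the annotation (H1f0 was not), and 10 carried H3K4me3 in each population, where 64.8%, 66.7%, 65.5% and 67.0% of all genes did. H1foo, H1fnt and Hils1, the H1 genes of oocytes and spermatids, had none in any list. H3K27me3 was at 0 of the 13 in both progenitor populations and in pregranulosa cells and at 2 in Sertoli cells, namely H2afy2, a macroH2A gene, with its whole window covered and Hils1 with 2997 bp. With 23.6%, 22.8%, 24.2% and 22.1% of all genes marked and few genes in the list, nothing is read from these counts.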

How the data were processed

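ChIP-seq of H3, H3K4me3 and H3K27me3 was analysed from the peak lists that the authors deposited. Per the file headers, the labels and the study's methods, reads were trimmed with Trim Galore, aligned to mm9 with Bowtie and handled with SAMtools, and peaks were called with HOMER in histone style against H3. The methods describe peak calling for each replicate and joined replicates for display, whereas the lists deposited are 1 per mark and population, so they may not be the calls used in the study. Versions, read length and the treatment of reads with several matches are not given in the sources used here. The headers of 6 lists gave peak sizes of 1000 bp (H3K4me3) and 5000 bp (H3K27me3), and a fold threshold of 4.00 against both the input and the surroundings of a peak. The score column as deposited was constant and was not used. The lists for pregranulosa cells carried no header. Overlapping peaks of a list were joined, because most H3K27me3 peaks of 3 lists were overlapping windows.

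Windows of TSS ± 2 kb around the annotated gene start, cover in bp, clusters (members at most 500 kb apart), divergent pairs (starts at most 1 kb apart) and exact binomial intervals were computed with Python 3.11.15, NumPy 2.4.6 and SciPy 1.17.1, and figures drawn with Matplotlib 3.10.9. Interval steps were tested on simulated data. Named genes were the germ cell variants, members with H3K27me3 or without H3K4me3 in any list, the widest and narrowest by summed H3K4me3 cover (up to 4 each, with ties), and the ends of clusters. Genes outside this rule were named after their values were seen. The members and lists were chosen with earlier results of these data known. Alternatives used a window of TSS ± 1 kb, an overlap of 500 bp, the widest 75% of regions, lists cut to the length of the shortest, regions within 1 kb joined, any annotated start, 1 window per group of overlapping windows, and clusters joined over at most 100 kb.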

Additional observations from a re-analysis of the deposited data

How the results depend on the processing

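No paired analysis was possible because each population has 1 list pooled from both replicates and the results come from no test. For the same reason no replicate could be left out. Of 200 values under alternative settings, 178 stayed within their counting interval, or within 1.5 times for counts, and 22 moved beyond it. Among the 22, the H3K4me3 counts by groups of windows and the median cover with TSS ± 1 kb were bound to move. The first had fewer windows, and the second a narrower window. With 1 window per group of overlapping windows, members with H3K4me3 numbered 33 in each population, and those with H3K27me3 numbered 5 in XY progenitors and 5 in XX progenitors, as did those bivalent (5 and 5). Both counts stayed at 2 and 2 in Sertoli and pregranulosa cells, so the loss of H3K27me3 was smaller by groups than by members. With TSS ± 1 kb the median H3K4me3 cover was 2001 bp, the whole of the narrower window, in each population. With clusters joined over at most 100 kb, H3K4me3 covered 30.5%, 38.2%, 33.6% and 36.2% in XY progenitors, XX progenitors, Sertoli and pregranulosa cells, and H3K27me3 2.96%, 4.42%, 1.32% and 1.61%, since the stretches between histone genes were left out. The H3K27me3 shares then lay below those of the autosomes in all populations but XX progenitors. Histone supply genes with H3K27me3 in Sertoli cells numbered 0 with the widest 75% of regions and 0 with lists cut to the length of the shortest, and the cause was not tested. Keeping the widest 75% gave 8 members with H3K27me3 in XX progenitors and 65 with H3K4me3 in XX progenitors, Sertoli and pregranulosa cells, where Hist1h2ba and Hist1h2aa lost the call. Requiring 500 bp of overlap left 8 with H3K27me3 in XY progenitors. Depth varied between the lists and is unknown for pregranulosa cells, so differences in H3K4me3 cover between populations cannot be told apart from differences in depth.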
